A study of Danio rerio with 14 samples.

Results

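mycb and myca are the zebrafish co-orthologues of the proto-oncogene MYC, and each had 1 probe set on a single-colour Affymetrix zebrafish array. They are 2 of 8793 genes that probe sets of a single gene represent, among 15502 non-control probe sets, and were found by the gene symbol in the platform annotation. The array measured 14 liver RNA samples of adult zebrafish kept for a month in either of 2 tanks, each holding ahcy+/+ and ahcy+/- fish. Fish of one tank got the usual amount of food (the regular diet), and those of the other were given excess food (overfed), so the diet and the tank cannot be told apart. ahcy encodes the hydrolase of S-adenosylhomocysteine. On the regular diet there were 4 arrays of ahcy+/+ and 3 of ahcy+/- livers, and after overfeeding 5 of ahcy+/+ and 2 of ahcy+/-. Arrays are named here by the numbers in their titles; the labels give neither sex nor exact age. The pair was chosen by the large decrease of mycb with overfeeding in ahcy+/+ livers, so that contrast is described without a test.

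MYC proteins are basic helix-loop-helix leucine zipper transcription factors that bind DNA as dimers with MAX. They are known for driving ribosome production, nucleotide synthesis and entry into the cell cycle, and MXD proteins compete with them for MAX. In mammalian liver MYC is known to be low in resting hepatocytes and to be induced early in regeneration. In bulk liver RNA, fewer cells of a type and less RNA per cell cannot be told apart.

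Values are the authors' log2 probe set levels. The hepatocyte marker list (16 of 19 genes measured) had a mean level of 12.46 to 13.08 on every array. Exocrine pancreas markers (13 of 18 measured, none at or below 4 on any array) averaged 7.07 to 12.68. Intestine markers (9 of 13 measured) averaged 5.87 to 10.02 on the regular diet and 5.25 to 6.49 after overfeeding. Regular-diet ahcy+/+ array 9 stood apart: it correlated with the arrays of its group at 0.912 on average, and the remaining arrays with theirs at 0.942 to 0.974. Its mean vitellogenin level (egg-yolk precursor genes, 3 of 7 measured) was 13.90, against 5.37 to 5.56 on the other arrays of its group. The ahcy probe set lay between 13.08 and 13.33 on all arrays.

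mycb was high on the regular diet and low after overfeeding in both genotypes. In regular-diet ahcy+/+ livers its level was 10.81 on array 2, 10.92 on array 5, 10.54 on array 6 and 8.46 on array 9. In regular-diet ahcy+/- livers it was 10.38 on array 3, 10.98 on array 7 and 8.29 on array 8. So 5 of the 7 regular-diet arrays were above 10, and 1 array of each genotype lay about 2 log2 units lower. In overfed ahcy+/+ livers mycb was 5.87 on array 2, 7.23 on array 3, 7.28 on array 4, 7.09 on array 6 and 6.76 on array 7. In overfed ahcy+/- livers it was 5.43 on array 1 and 6.11 on array 4. Every overfed array was below every regular-diet array, the nearest being 7.28 and 8.29. On overfed ahcy+/+ array 2 and overfed ahcy+/- array 1 mycb lay below the array median (5.998 and 6.02). Without detection calls, whether low signal limits the size of the decrease there cannot be told.

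myca, which encodes the other MYC co-orthologue, varied over less than 1 log2 unit across all 14 arrays. In regular-diet ahcy+/+ livers its level was 5.76 on array 2, 5.61 on array 5, 5.76 on array 6 and 4.84 on array 9. It was 5.33, 5.62 and 5.47 on regular-diet ahcy+/- arrays 3, 7 and 8. In overfed ahcy+/+ livers it was 4.77 on array 2, 5.23 on array 3, 5.61 on array 4, 5.54 on array 6 and 5.25 on array 7, and in overfed ahcy+/- livers 5.21 on array 1 and 4.87 on array 4. The diets overlapped for myca in ahcy+/+ livers. In ahcy+/- livers they did not, the nearest values being 5.21 and 5.33. All its levels were below the array medians (5.95 to 6.13 over non-control probe sets), and the values used here carry no detection calls.

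**Figure D1:**
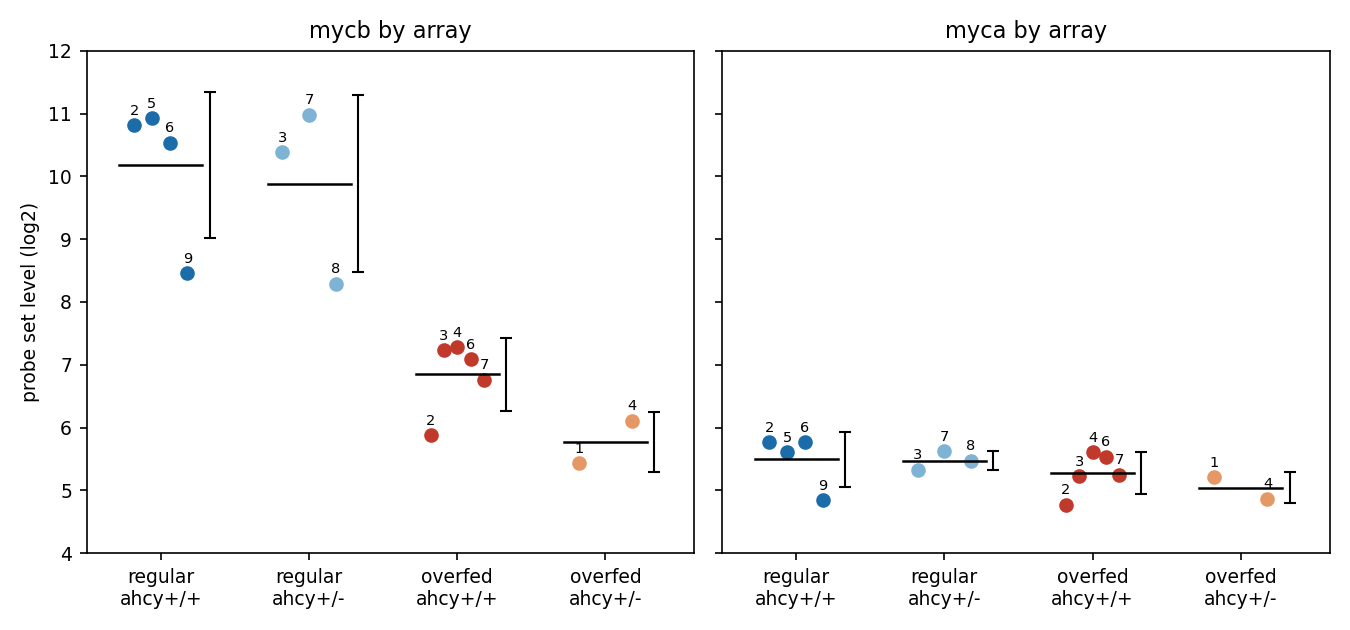
Level of the mycb probe set (left) and the myca probe set (right) on each array (log2), by genotype and diet. Points are arrays with their numbers, lines are group means and bars are 1 SD. For mycb the overfed arrays lie between 5.43 and 7.28 and the regular-diet arrays between 8.29 and 10.98, whereas all myca points lie between 4.77 and 5.76.

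As a description of the contrast that singled the gene out, mycb averaged 10.18 ± 1.16 (SD, n = 4) in regular-diet and 6.85 ± 0.58 (SD, n = 5) in overfed ahcy+/+ livers. The log2 difference was -3.33 ± 0.58 (SE from limma), 10.1-fold lower, which ranked 6 from the most negative among 15134 probe sets tested. In that contrast 4.5% of all probe sets passed an adjusted p of 0.05, 3.07% higher and 1.43% lower. Without array 9 the difference was -3.91. For myca the means were 5.49 ± 0.44 (SD, n = 4) and 5.28 ± 0.33 (SD, n = 5), which differ by -0.21 ± 0.21 (log2, SE), and by -0.43 without array 9.

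The ahcy+/- livers gave the same measurement on arrays that the ahcy+/+ diet contrast did not use. The spread in the fit came from all 14 arrays, however, including the ahcy+/+ arrays by which mycb was chosen. The mean of mycb was 5.77 ± 0.48 (SD, n = 2) in overfed livers, 17.3-fold below the 9.89 ± 1.41 (SD, n = 3) of the regular diet. The log2 difference was -4.11 ± 0.79 (SE), with a 95% interval from -5.82 to -2.41. It did not pass the correction over all probe sets (limma, adjusted p = 0.0787, unadjusted p = 0.000164), although both overfed arrays were below all 3 regular-diet arrays. A fit of the ahcy+/- groups alone gave the same difference with a limma adjusted p of 0.207 (unadjusted p = 0.00173). In this contrast 0.0991% of probe sets passed, 0.0661% higher and 0.033% lower, and mycb ranked 3 from the most negative difference. Without regular-diet ahcy+/- array 8, the one with the lowest mycb of its group, the difference was -4.91 (limma, adjusted p = 0.0165). Without ahcy+/+ array 9, which enters only the estimate of the spread, the adjusted p was 0.0191 in limma. Over the 14 fits that left out 1 array the difference ran from -4.91 to -3.57, and leaving out an ahcy+/+ array could not move it. Where each group kept at least 2 arrays, the limma adjusted p ran from 0.0165 to 0.189, with 2 below the threshold.

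The second paralogue did not pass in ahcy+/- livers. Its mean was 5.47 ± 0.15 (SD, n = 3) on the regular diet, and overfed livers had 5.04 ± 0.25 (SD, n = 2). They differ by -0.43 ± 0.28 (log2, SE; limma, adjusted p = 0.493), with a 95% interval from -1.05 to 0.18. The difference was -0.26 without overfed ahcy+/- array 4 and -0.61 without array 1 of that group. It was -0.12 with the vitellogenin level as a covariate and -0.61 with the pancreas and intestine levels, and it passed with neither set of covariates. The median over all 15134 probe sets in this contrast was -0.094. The diet difference in ahcy+/- minus that in ahcy+/+ livers was -0.78 for mycb (95% interval -2.89 to 1.33) and -0.22 for myca (95% interval -0.98 to 0.54). It is given without a test, since it contains the contrast that singled out mycb.

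The genotype comparisons asked whether livers heterozygous for ahcy differed in the paralogues, and neither gene passed on either diet. Each has as 1 side ahcy+/+ arrays by which mycb was chosen, so that choice can shift its differences, intervals and p-values. On the regular diet the difference, ahcy+/- minus ahcy+/+, was -0.30 ± 0.66 (SE) for mycb (limma, adjusted p = 1.0) and -0.020 ± 0.24 for myca. The 95% interval for mycb ran from -1.72 to 1.13, and without ahcy+/- array 8 the difference was 0.50. After overfeeding the mycb difference was -1.08 ± 0.72 (SE; limma, adjusted p = 1, unadjusted p = 0.16), with a 95% interval from -2.64 to 0.48. Of the 2 overfed ahcy+/- arrays, array 1 was below all 5 overfed ahcy+/+ arrays and array 4 was above array 2 of that group. For myca the difference after overfeeding was -0.24 ± 0.26. In limma 0% of probe sets passed in either genotype contrast, and 459 on the regular diet and 260 after overfeeding had an unadjusted p under 0.05.

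By group mean, mycb was highest in ahcy+/+ and then ahcy+/- livers on the regular diet, followed by ahcy+/+ and last ahcy+/- livers after overfeeding. The first pair overlapped and the last pair overlapped, and the middle neighbours did not. myca had the same order of means, with every pair of neighbours overlapping. Within groups the SD of mycb was 0.98 (pooled over 4 groups), larger than that of 98.1% of tested probe sets. That of myca was 0.33, larger than for 77.7%, and the median probe set stood at 0.23.

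Whether the paralogues changed unequally was read from the difference mycb minus myca within each array, which any shift common to an array cannot alter. Only changes of this difference between groups are interpretable, not its level. Whether myca could have fallen further cannot be told, since all its levels were below the array medians and carry no detection calls. On the regular diet it was 3.62 to 5.32 in ahcy+/+ and 2.82 to 5.36 in ahcy+/- livers. After overfeeding it was 1.1 to 2.01 on the 5 ahcy+/+ arrays, and 0.22 and 1.24 on the ahcy+/- arrays. The diets did not overlap in either genotype. The group means were 4.69 ± 0.75 (SD, n = 4), 4.41 ± 1.39 (SD, n = 3), 1.57 ± 0.33 (SD, n = 5) and 0.73 ± 0.72 (SD, n = 2) on the regular diet in ahcy+/+ and in ahcy+/- livers, then after overfeeding in the same order.

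The within-array difference thus changed by -3.12 with diet in ahcy+/+ livers (no test) and by -3.68 in ahcy+/- livers. For the latter the 2-sided exact permutation test gave p = 0.2, and 0.3 after Benjamini-Hochberg adjustment over 3 tests, in a design whose smallest possible p is 0.1. With genotype it changed by -0.28 on the regular diet (exact permutation p = 0.714, adjusted 0.714) and by -0.84 after overfeeding (exact permutation p = 0.0952, adjusted 0.286). The change after overfeeding was -0.33 without ahcy+/- array 1 and -1.35 without ahcy+/- array 4. The smallest possible p was 0.0286 and 0.0476 in these comparisons. Both genotype comparisons use ahcy+/+ arrays by which mycb was chosen, and that choice can shift these changes and their p-values.

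The arrays with the lowest mycb of their groups were compared with marker levels. In 4 of 4 groups the array lowest in mycb was the one with the highest mean vitellogenin level. That level was 13.90 on regular-diet ahcy+/+ array 9, 9.28 on overfed ahcy+/+ array 2 and 12.40 on overfed ahcy+/- array 1. On regular-diet ahcy+/- array 8 it was 5.66, close to the 5.42 and 5.57 of its group. The lowest myca of a group was on the same array as the lowest mycb in both ahcy+/+ groups, but on arrays 3 and 4 in the ahcy+/- groups. With the mean vitellogenin level as a covariate the diet difference of mycb was -3.42 in ahcy+/+ and -3.12 in ahcy+/- livers (limma, adjusted p = 0.0645 for the second). The vitellogenin level itself differed by diet, at 6.31 to 12.40 on overfed arrays and 5.37 to 5.66 on regular-diet arrays except array 9. As a covariate it is thus partly tied to diet, in this fit and in the others that use it.

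Markers of other tissues moved in part with diet. The intestine list had a summed linear level of 1692 to 27617 on the regular diet and of 777 to 1534 after overfeeding. The muscle list (11 of 13 measured) averaged 6.18 to 6.99 on the regular diet and 5.87 to 6.16 after overfeeding, so it did not overlap between diets, as mycb did not. Its summed level was 892 to 1710 and 737 to 889, and its part in the result was not tested. The exocrine pancreas list summed to 8743 to 130057 on the regular diet and 2339 to 87340 after overfeeding. With the mean levels of the intestine and exocrine pancreas lists as covariates, mycb differed with diet by -3.77 in ahcy+/+ livers. In ahcy+/- livers it differed by -4.87 (limma, adjusted p = 0.0615). The mean intestine level, used as the covariate, was 5.87 to 10.02 on the regular diet and 5.25 to 6.49 after overfeeding. It overlapped between diets but is partly tied to diet, here and in the other fits that use it. Leukocyte markers (10 of 14 measured) averaged 6.90 to 7.88 on the regular diet and 6.87 to 7.80 after overfeeding, and their part in the result was not tested.

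**Figure D2:**
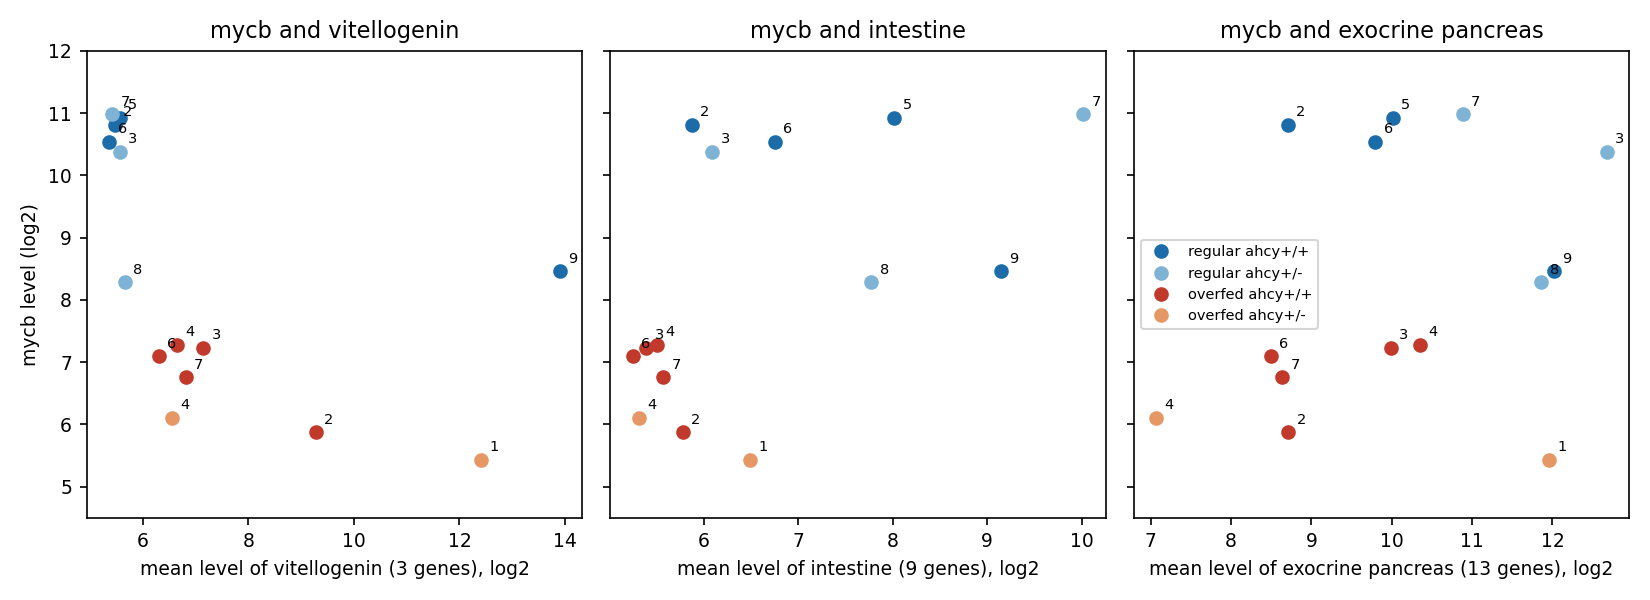
Level of mycb (log2, vertical axis) against the mean log2 level of the vitellogenin, intestine and exocrine pancreas marker lists (horizontal axes), 1 point per array with its number, coloured by group. Regular-diet arrays stand at or above 8.29 in mycb over intestine means from 5.87 to 10.02. Array 9 of regular-diet ahcy+/+ has a vitellogenin mean of 13.90.

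The other MYC family members and the MAX network were examined from a list of 20 symbols, of which 8 genes were on the array and all 8 were tested. None passed in any of the 4 contrasts in limma. An unadjusted p under 0.05 was reached by 3 of the 8 with diet in ahcy+/+, by 2 in ahcy+/- livers and by 0 with genotype on either diet. Over all probe sets 19.7% and 14.2% did so in the 2 diet contrasts. With diet in ahcy+/+ livers 4 of 8 were lower (median -0.047), against 55.6% of all probe sets tested (median -0.033). Heterozygous livers had 5 of 8 lower (median -0.15), against 63.1% of all probe sets tested (median -0.094). Left out singly, array 9 or overfed ahcy+/+ array 7 brought 1 member past the threshold with diet in ahcy+/+ livers. Over all probe sets those fits called 1342 and 628.

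mych, a further MYC family gene of zebrafish, was 6.88, 7.44, 6.70 and 9.94 on regular-diet ahcy+/+ arrays 2, 5, 6 and 9. It was 6.89, 8.24 and 6.47 on regular-diet ahcy+/- arrays 3, 7 and 8, from 5.64 to 6.40 on the overfed ahcy+/+ arrays, and 6.52 and 5.89 on overfed ahcy+/- arrays 1 and 4. It was highest on array 9, where mycb was lowest of its group. The log2 difference with diet was -1.64 ± 0.56 (SE; limma, adjusted p = 0.12) in ahcy+/+ and -0.99 ± 0.77 in ahcy+/- livers. It was -0.90 in ahcy+/+ without array 9, and in ahcy+/- livers -0.47 without array 7 and -0.68 without overfed array 4. The 3 highest mych levels were on the 3 arrays with the highest intestine means (9.15, 10.02 and 8.02). With the pancreas and intestine levels as covariates the difference in ahcy+/+ was -0.43 and that in ahcy+/- livers 0.47. With the vitellogenin covariate they were -1.55 (limma, adjusted p = 0.0322) and -2.02 (adjusted p = 0.105).

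myclb, which encodes an L-MYC protein, followed mycb in the order of several arrays. It was 7.82, 8.22, 7.89 and 6.33 on regular-diet ahcy+/+ arrays 2, 5, 6 and 9, and 7.98, 8.0 and 6.71 on ahcy+/- arrays 3, 7 and 8. After overfeeding it was 6.54 to 6.86 in ahcy+/+ and 6.37 and 6.65 in ahcy+/- livers. Arrays 9 and 8 were thus the low ones of the regular diet for both genes, and for myclb array 9 lay below all overfed ahcy+/+ arrays. The difference with diet was -0.86 ± 0.35 (SE; limma, adjusted p = 0.185) in ahcy+/+ and -1.05 ± 0.47 (adjusted p = 0.341) in ahcy+/- livers. Without array 9 it was -1.28 in ahcy+/+ (limma, adjusted p = 0.0102). In ahcy+/+ livers it also passed with array weights (-1.21, limma adjusted p = 0.00549) and with the vitellogenin covariate (-0.91, 0.0447). It did not pass with quantile normalization (0.209) or the pancreas and intestine covariates (0.127).

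mxd4, which encodes a MAX-binding antagonist of MYC, was 7.01 to 7.63 on the regular-diet and 7.52 to 8.16 on the overfed ahcy+/+ arrays. It was 7.31 to 7.51 on the regular-diet and 7.86 and 7.98 on the overfed ahcy+/- arrays. The difference was 0.54 ± 0.16 (SE; limma, adjusted p = 0.0675) in ahcy+/+ livers, where array 7 of the overfed group overlapped the regular diet. The ahcy+/- difference was 0.52 ± 0.21 (adjusted p = 0.304). In ahcy+/+ livers mxd4 passed in limma with arrays centred on their medians (adjusted p = 0.0473) and with array weights (0.0474). It also passed with the vitellogenin covariate (0.0468) and without overfed array 7 (0.0319), and in no other alternative.

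MAX itself, the dimer partner, had 2 probe sets. Their differences with diet were -0.066 and 0.14 in ahcy+/+ and 0.54 and 0.22 in ahcy+/- livers, and the first pair went opposite ways. Without array 9 that pair was 0.24 and 0.29. Regular-diet ahcy+/+ array 9 was the highest of all arrays on both, at 9.58 and 9.05. The other members were mycla (-0.22 in ahcy+/+ and -0.28 in ahcy+/- livers), mycn (0.097 and -0.030), the MAX-binding antagonist mxi1 (0.0075 and -0.26) and mgaa, whose protein binds MAX (-0.10 and 0.25). A second mycn probe set lay between 3.16 and 4.09 and was removed by the filter on low values.

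**Figure D3:**
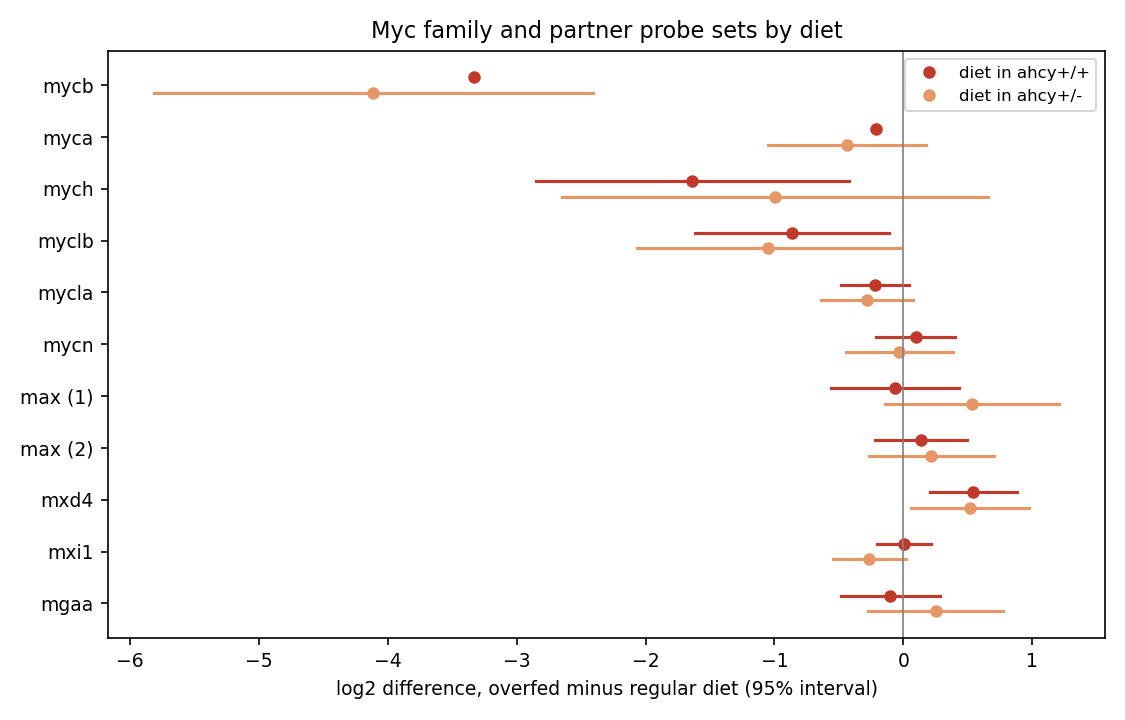
Log2 differences, overfed minus regular diet, of the probe sets of mycb, myca and 8 further MYC family and MAX network genes, with 95% intervals from limma (none is drawn for mycb and myca in ahcy+/+, the contrast that singled them out). In ahcy+/- livers mycb stands farthest from 0, at -4.11, and myca stands at -0.43. In ahcy+/+ livers, where mycb was chosen for its large decrease, they stand at -3.33 and -0.21.

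Genes that MYC is known to drive were examined from lists of textbook targets. Of 70 tested ribosome biogenesis genes, 47 were higher and 23 lower with overfeeding in ahcy+/+ livers (median 0.17), and 2 passed, 1 in each direction. Over all probe sets 55.6% were lower (median -0.033). The nucleolar chaperone gene npm1a rose from 10.77 ± 0.50 (SD, n = 4) to 11.91 ± 0.47 (SD, n = 5), a log2 difference of 1.14 (limma, adjusted p = 0.0376). sdad1, needed for export of the large ribosomal subunit, fell by 0.56 (adjusted p = 0.0371). The other 68 ran from -0.49 for utp11 to 0.84 for gnl3. The share called was 2.86%, against 4.5% of all probe sets. Without array 9, 7 members passed, and without array 2, 5 or 6 of its group or overfed array 4 or 6, none did. Over all probe sets 1342 of 15117 passed without array 9, and 253 to 391 in the other fits named. With diet in ahcy+/- livers 37 were higher and 33 lower (median 0.037), and none passed. Over all probe sets 63.1% were lower in that contrast (median -0.094). With genotype on the regular diet 52 of 70 were lower in ahcy+/- livers, against 37.3% of all probe sets, and after overfeeding 61 of 70, against 51.8%. None passed in limma in either genotype contrast (2 at an unadjusted p under 0.05 in each). The count after overfeeding rests on 2 ahcy+/- arrays. None of these counts of directions was tested or repeated with arrays left out, and genes of a list can vary together.

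In ahcy+/+ livers 4.5% of all probe sets passed with diet: 3.07% of all were higher and 1.43% of all were lower. Of 27 tested nucleotide and polyamine synthesis genes 4 passed (14.8%), all lower with overfeeding. They were tyms, which makes thymidylate (-1.17 ± 0.26, SE), the dUTPase gene dut (-1.0 ± 0.25), the ribonucleotide reductase gene rrm1 (-0.85 ± 0.13) and the spermine synthase gene sms (-0.37 ± 0.10), with limma adjusted p from 0.00583 to 0.0463. rrm1 was 5.62 to 6.17 on the regular diet and 4.99 to 5.20 after overfeeding in ahcy+/+ livers, without overlap. The other 23 ran from -0.37 for dhodh to 0.69 for prps1a, and the list median was -0.013. Between 1 and 2 members passed when regular-diet array 2, 5 or 6 or overfed array 2, 3, 4 or 6 was left out. Over all probe sets those fits called 253 to 624, against 681 in the main fit. odc1 and cad, often used as MYC targets, differed by -0.28 and 0.24. In heterozygotes tyms differed by -0.90, dut by -0.68, rrm1 by -0.80 and sms by -0.36, and none passed.

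Regulators of the step from G1 into S phase changed in both directions, with 4 of 28 tested members past the threshold in ahcy+/+ livers. This was 14.3%, against 4.5% of all probe sets, and the list median was -0.22. The cyclin D1 gene ccnd1 fell by 1.08 (limma, adjusted p = 0.0316), from 8.02 ± 0.37 (SD, n = 4) to 6.93 ± 0.18 (SD, n = 5). The cyclin-dependent kinase inhibitor gene cdkn1bb rose by 1.31, and the helix-loop-helix inhibitor genes id1 and id3 rose by 0.85 and 1.27 (limma, adjusted p from 0.00811 to 0.0201). The other 24 ran from -0.81 for e2f4 to 1.61 for gadd45ga. Without array 9, 7 members passed, and without regular-diet array 2 or 5 or overfed array 4 or 6, 2 did. Over all probe sets 1342 of 15117 passed without array 9, and 253 to 391 in the other fits named. In heterozygotes ccnd1 differed by -1.04, cdkn1bb by 1.17, id1 by 0.90 and id3 by 0.97, with none past the threshold.

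MYC is also known as an immediate early gene. Of 28 tested members of that class 2 passed with diet in ahcy+/+ livers, 7.14% against 4.5% of all probe sets (3.07% higher). Both were higher: the AP-1 genes junba (1.71 ± 0.37, SE) and junbb (1.85 ± 0.34), with limma adjusted p = 0.0212 and 0.0119. The other 26 ran from -0.90 for klf9 to 2.28 for klf11b (list median 0.21). Members past the threshold numbered 4 without regular-diet array 9, overfed array 2 or overfed array 3, and 1 without regular-diet array 2, 5 or 6. Over all probe sets those fits called 1342, 520 and 624, and then 267, 301 and 335, in the same order.

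Of 15 tested genes for MYC cofactors and MYC turnover, 1 passed with diet in ahcy+/+ livers (6.67%, against 4.5% of all probe sets). This was gsk3ab, which encodes a kinase of the GSK3 family that marks MYC for degradation (0.39 ± 0.10, limma adjusted p = 0.0421). The rest ran from -0.51 for ruvbl2 to 0.49 for ctnnb1 (list median 0.0089). The count was 2 without array 9, and 0 without regular-diet ahcy+/+ array 2, 5 or 6, ahcy+/- array 3 or overfed ahcy+/+ array 2, 3 or 6. Over all probe sets 1342 of 15117 passed without array 9, and 253 to 641 in the other fits named. In ahcy+/- livers, 33 of the 176 members of the 6 lists (18.8%) had an unadjusted p under 0.05, against 14.2% of all probe sets, and none passed in limma.

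Leaving out single arrays ended many of these calls. Each of the 14 fits with an array omitted kept rrm1, id1, id3 and junbb past the threshold. The others passed in 2 (sms), 6 (gsk3ab), 7 (npm1a, dut and ccnd1), 8 (sdad1), 10 (tyms and cdkn1bb) or 11 (junba) of 14. The adjusted p was highest without regular-diet ahcy+/+ array 2 for gsk3ab (0.12), sdad1 (0.101) and ccnd1 (0.0968), and without array 6 of that group for npm1a (0.107) and dut (0.0957). It was highest without array 5 of that group for sms (0.141), cdkn1bb (0.0693) and junba (0.0705), and without overfed array 6 for tyms (0.0729).

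**Figure D4:**
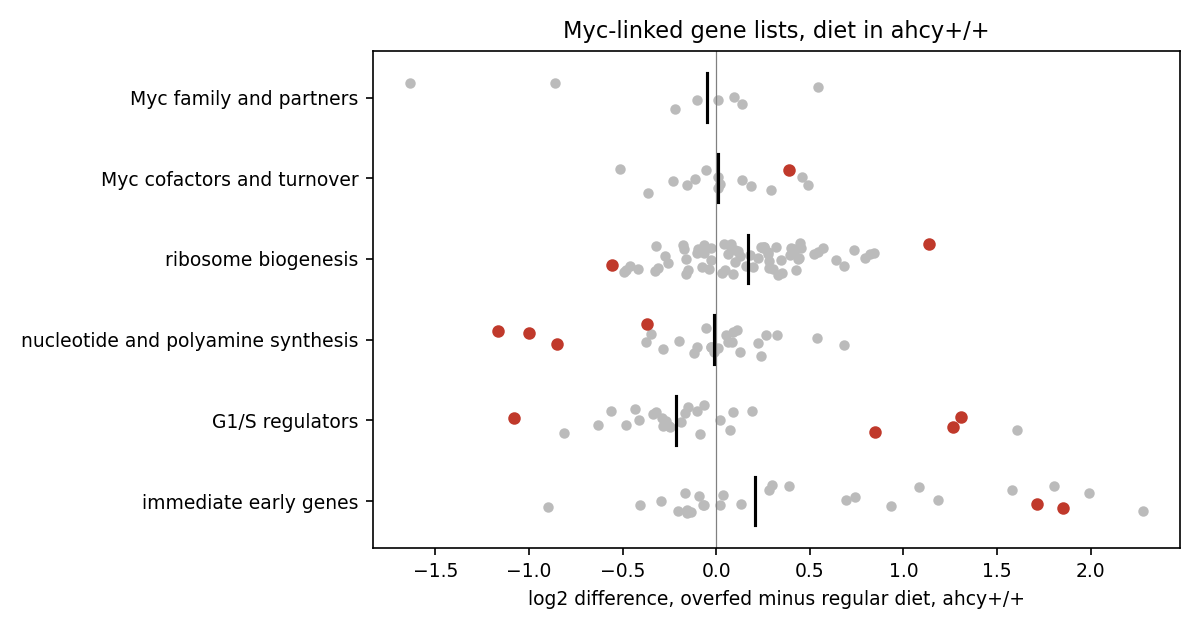
Log2 differences with overfeeding in ahcy+/+ livers for the tested members of 6 MYC-linked lists. Each point is a gene, red where it passed an adjusted p of 0.05, and vertical lines are list medians. The medians run from -0.22 for G1/S regulators to 0.21 for immediate early genes, and nucleotide and polyamine synthesis is the list in which every gene past the threshold was lower.

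Genes whose levels were most like those of mycb over the 14 arrays were ranked by Pearson correlation, as a description. Here and for myca, only probe sets of 1 gene whose symbol is not a clone or locus placeholder were ranked. The arrays share diet and tank, and mycb falls into a high and a low set by diet, so genes that differ by diet can score high. The 5 highest were otud4, a deubiquitinase gene (r = 0.966), the cell cycle regulator gene rgcc (0.957), the cyclin gene ccni (0.951), the growth factor gene igf2b (0.943) and the actin capping gene capza1b (0.935). rgcc was 6.75 to 8.11 on the regular diet and 5.32 to 5.84 after overfeeding, without overlap. otud4 covered only 5.63 to 6.06 over all arrays.

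With group means removed, the genes most like mycb were lysmd1 (r = 0.95), copz2 (0.94), yrk (0.921), naca (0.912) and igf2b (0.908). igf2b was thus the one gene in both lists. Its levels were 7.80 to 10.18 on the regular diet and 6.22 to 7.94 after overfeeding. For myca the levels most alike were those of ldb1a (0.851), cyp11c1 (0.85), kiz (0.847), cemip2 (0.825) and gatb (0.822). With group means removed they were fan1 (0.945), sh2b1 (0.903), fgb (0.898), cpvl (0.887) and dbi (0.884). No gene was common to the lists of mycb and of myca. The paralogues themselves nevertheless varied together in part. Over the 14 arrays the levels of mycb and myca correlated at r = 0.657, and at r = 0.649 with group means removed. These values are also given as a description, without a test. Regular-diet ahcy+/+ array 9, the lowest of its group in both genes, weighs heavily in the second value. In both ahcy+/- groups the lowest mycb and the lowest myca were on different arrays.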

How the data were processed

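The deposited table holds the authors' log2 probe set summaries, and the submitters' processing notes name GCRMA and Partek without saying how they were used. The log2 scale was read from the range of the values (0.464 to 14.738), and the scanner files were not used here. Of 15617 probe sets, 115 controls were left out and 368 not above 4 on at least 2 arrays were removed, which leaves 15134. Symbols are those of the platform annotation, updated through Entrez IDs where a GRCz12tu reference table allowed; 10795 probe sets had 1 gene, 135 several and 4572 none.

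A model with 4 group means over the 14 arrays was fitted in limma 3.58.1 (R 4.3.3; lmFit, eBayes; 10 residual and 3.06 prior degrees of freedom), with Benjamini-Hochberg adjustment over all tested probe sets and a threshold of 0.05. A gene with several probe sets was represented in lists by the one with the highest mean. The mycb minus myca difference was tested by exact permutation. Named genes were the members, every family and MAX network gene, list members past the threshold with the extremes of the rest, and the 5 most correlated genes; odc1 and cad were named after their values were seen. The members and lists were chosen with earlier results of these data known. The labels do not say that the arrays of a group are from separate fish, so p-values measure the spread between these samples. The array titled 4 of the overfed ahcy+/+ group carries the number 5 in its description. Alternatives were other filters, scalings, variance models, covariates, a replicate block and leaving out arrays. The fit was tested on simulated data. Python 3.11.15 and matplotlib 3.10.9 drew the figures.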

Additional observations from a re-analysis of the deposited data

Results flagged for a closer look

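A gap between 1 array and the rest of its group was looked for in the 2 groups with 4 or 5 arrays, for the members and the named family, list and correlated genes. It stood out in 13 of 90 groups of values, where chance gives about 5%, and 10 of the 13 were regular-diet ahcy+/+ array 9. On that array mycb (8.46, next 10.54) and myca (4.84, next 5.61) were the lowest of their group. Also lowest there were id3 (6.89), lysmd1 (3.30), copz2 (5.90), fan1 (5.67) and cpvl (7.16). Highest there were the second max probe set (9.05), mycla (5.35) and junba (6.79). In the overfed ahcy+/+ group, igf2b (6.22) and kiz (4.37) were low on array 2, and mgaa (4.68) on array 7. Of the correlated genes, lysmd1, copz2, fan1 and cpvl entered the lists made with group means removed, where this 1 array weighs heavily. Since the same array carries the 13.90 of vitellogenin and a low correlation with its group, these flags are not independent of each other, and their cause was not tested.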

How the results depend on the processing

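The diet difference of mycb in ahcy+/+ livers stayed negative and within 1 SD of its value in all 25 alternatives (-4.19 to -3.09). That is the contrast by which mycb was chosen, so this range is a description. Changing only the filter or the variance model, or leaving out arrays of the other genotype, cannot move a diet difference. In ahcy+/- livers the mycb difference stayed negative in all 25 and passed the threshold with array weights (-4.17) and in 2 of the 14 fits that left out 1 array (range -4.91 to -3.57). The mycb genotype difference on the regular diet was 0.13 with pancreas and intestine covariates and ran from -0.87 to 0.50 over the left-out arrays. For myca on the regular diet these were 0.044 and -0.24 to 0.070 (0.070 without ahcy+/+ array 2 or 6, 0.053 without ahcy+/- array 3, 0.018 without ahcy+/+ array 5). mycb minus myca with genotype on the regular diet ran from -0.75 to 0.52. Filtering at 6 removed myca. Centring arrays shifted the all-probe-set median for diet in ahcy+/- by 0.11.

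Counts of list members called for diet in ahcy+/+ depended more on the setting. In the order family, cofactors, ribosome biogenesis, nucleotide synthesis, G1/S and immediate early genes, they were 0, 1, 2, 4, 4 and 2. Counts that moved by over 1.5 times are given for each setting. With array weights they were 2 family, 3 cofactor, 10 ribosome, 8 G1/S and 7 immediate early genes. With centred arrays they were 1 family, 2 cofactor and 1 ribosome gene. With the vitellogenin covariate they were 3 family, 2 cofactor and 5 immediate early genes. Without the 2 arrays highest in vitellogenin, chosen after seeing the data, they were 1, 2 and 6 for the first 3 lists, 7 G1/S and 4 immediate early genes. In fits of the compared groups alone they were 0 cofactor, 0 ribosome, 2 nucleotide and 1 immediate early gene. The filter at 6 gave 2 and the robust trend 0 cofactor genes, and quantile normalization and the pancreas and intestine covariates each gave 2 nucleotide genes. Calls over all probe sets moved with the setting too. They numbered 681 of 15134 in the main fit, 1949 with array weights, 795 with centred arrays and 1090 with the vitellogenin covariate. The compared groups alone gave 588, the filter at 6 gave 772 of 9513, and the robust trend 635. Quantile normalization gave 605, the pancreas and intestine covariates 563, and fits without 1 array 253 to 1342. Leaving out 1 array gave 0 to 1, 0 to 2, 0 to 7, 1 to 5, 2 to 7 and 1 to 4 list members in the order above. In ahcy+/- livers, where 0 passed, the vitellogenin covariate gave 1 nucleotide gene, leaving out those 2 arrays gave 1 nucleotide and 1 G1/S gene, and leaving out 1 array 0 to 1 nucleotide and immediate early genes.

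With the replicate number as a block, myca differed by -0.61 and mycb by -4.19 with diet in ahcy+/+ livers, myca by -0.98 in ahcy+/- livers (limma, adjusted p = 0.627), and 0 members of the last 5 lists passed. This fit leaves few degrees of freedom, and over all 15134 probe sets 6 passed with diet in ahcy+/+ and 0 in ahcy+/- livers. The numbers share no stated source, and deviations of same-numbered arrays correlated from -0.23 to 0.16, so the arrays were not treated as paired. The -0.23 was for number 4, which includes the overfed ahcy+/+ array whose title and description numbers differ. Title numbers were used for the block and for these correlations. Dropping 1 overfed ahcy+/- array leaves 1, assumed to vary like the other groups. The number of arrays limits all intervals.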
